A study of Homo sapiens with 11 samples.

Results

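TRPM8 and SLC7A8 are 2 of the 45965 genes in the count table of a study of mutant p53 in H1299 cells. They were chosen by their own counts, which were low in 8 of the 11 libraries and raised in the 3 R175H R72 libraries, so that difference is described below with its size and no test. Each symbol stood on 1 row of the table, and both genes passed the filter on low counts. SLC7A8 passed it only through the R175H R72 libraries. H1299 cells come from a human lung carcinoma and lack endogenous p53. The study's title names mutant p53, tumour metabolism, metastasis and PGC-1α. mRNA was measured by 3′ end sequencing (QuantSeq), in which a read marks the end of a transcript, and levels are given in CPM, counts per 1000000 counts of a library, with library sizes scaled by TMM factors.

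All cells were H1299 given 5 µg of construct DNA and then 14 days of neomycin (800 µg/ml) to obtain stable lines. The constructs carried p53 with 1 of 2 tumour hotspot changes, R175H or R273H, and with arginine (R72) or proline (P72) at the common codon 72 polymorphism. The groups were R175H R72 (3 libraries), R273H R72 (1 library), R273H P72 (4 libraries) and R175H P72 (3 libraries). The labels name a batch for each library without saying what it stands for: b1 held 1 R175H R72 and 3 R273H P72 libraries, and b2 held the other 7. The labels do not say whether libraries of a group came from separate transfections, cultures or selected clones, so p-values reflect only how libraries of a group vary, and that variation may be technical. No parental or empty-vector library was analysed here. A group's construct and the line it was measured in therefore cannot be told apart.

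TRPM8 encodes a cation channel that opens on cooling and on menthol and lets calcium into the cell, with the membrane lipid PIP2 as a cofactor. It is best known in cold-sensing sensory neurons and in prostate epithelium, where the androgen receptor raises its expression. SLC7A8 encodes LAT2, a light chain that pairs with the heavy chain 4F2hc (SLC3A2) and exchanges neutral amino acids across the membrane, and it is abundant in kidney tubule. Its relative LAT1 (SLC7A5) is the form usually abundant in tumour cells.

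TRPM8 (ENSG00000144481) lies on hg38 chromosome 2, 233917398 to 234019522, on the plus strand. SLC7A8 (ENSG00000092068) lies on chromosome 14, 23125295 to 23183674, on the minus strand. The RefSeq promoter windows of both genes (GRCh38.p14, 300 bases around the start, most of them before it) are shown to compare their letters, since both genes are high in the same libraries. Capitals mark a TATA box in TRPM8 and a GC box in SLC7A8.
TRPM8 chr2:233917123-233917422 (+): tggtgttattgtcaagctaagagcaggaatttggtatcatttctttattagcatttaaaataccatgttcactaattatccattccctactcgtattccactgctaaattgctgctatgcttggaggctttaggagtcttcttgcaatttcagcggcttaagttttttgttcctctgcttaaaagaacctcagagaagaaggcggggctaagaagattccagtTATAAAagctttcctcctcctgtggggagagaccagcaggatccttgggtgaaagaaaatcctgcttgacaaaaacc
SLC7A8 chr14:23183611-23183910 (-): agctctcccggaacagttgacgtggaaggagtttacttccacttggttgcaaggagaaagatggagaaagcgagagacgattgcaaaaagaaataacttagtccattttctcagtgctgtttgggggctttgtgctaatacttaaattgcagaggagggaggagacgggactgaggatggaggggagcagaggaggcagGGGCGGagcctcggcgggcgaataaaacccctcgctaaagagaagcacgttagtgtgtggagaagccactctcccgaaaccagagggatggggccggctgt
The TRPM8 window had a GC content of 41.0% and the SLC7A8 window 53%, against a median of 58.7% over 35116 promoters. Both strands were searched for 8 motifs. The TRPM8 window held the TATA box TATAAA, which 11.5% of promoters hold. The SLC7A8 window held the GC box GGGCGG, found in 45.0% of promoters, and the E-box CANNTG at 2 places, found in 68.7%. Neither window held CCAAT (34.6% of promoters), the AP-1 site TGANTCA (7.71%), the CRE TGACGTCA (1.85%), the androgen receptor half-site AGAACA (14.8%) or the p53 half-site (6.63%). No searched motif was held by both windows. RefSeq lists 6 starts for TRPM8 and 4 for SLC7A8, and 3′ end counts do not show which start was used.

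TRPM8 was measured at 9.14, 8.47 and 9.12 CPM in R175H R72 replicates 1, 2 and 4. It was at 0.933 CPM in the R273H R72 library. The R273H P72 libraries had 1.71, 1.99, 1.73 and 1.59 CPM in replicates 1 to 4, and the R175H P72 libraries had 0.403, 1.02 and 0.798 CPM in replicates 1, 2 and 4. All 3 R175H R72 libraries lay above the other 8, as they did for 0.637% of all genes tested. The R273H P72 libraries lay above the R273H R72 and R175H P72 libraries without overlap. The share of all genes with that second split was not worked out, but 14% had R273H P72 wholly above R175H P72. That split also runs largely along batch, since b1 supplied 3 libraries to its upper side and none to its lower side. Whether batch adds to it was not tested. The counts behind these levels were 77, 84 and 76 in R175H R72, 10 in R273H R72, 22, 17, 15 and 15 in R273H P72, and 4, 12 and 9 in R175H P72. TRPM8 was thus detected in every library. The group means were 8.91 ± 0.381 CPM in R175H R72 (SD, n = 3), 0.933 CPM in the single R273H R72 library, 1.76 ± 0.172 CPM in R273H P72 (SD, n = 4) and 0.741 ± 0.314 CPM in R175H P72 (SD, n = 3). In the order of means R175H R72 came first, then R273H P72, R273H R72 and R175H P72, and the R273H R72 library lay inside the range of R175H P72.

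SLC7A8 was measured at 3.2, 4.44 and 2.76 CPM in R175H R72 replicates 1, 2 and 4, from 27, 44 and 23 counts. The R273H R72 library had 0.187 CPM, from 2 counts. The R273H P72 libraries had 0.311, 0, 0.231 and 0.317 CPM in replicates 1 to 4 and the R175H P72 libraries 0.302, 0 and 0.355 CPM in replicates 1, 2 and 4, each from 4 counts or fewer. SLC7A8 was near the detection limit in the 8 libraries outside R175H R72, and those 3 groups overlapped. A count of 0 allows up to 0.352 CPM in R273H P72 replicate 2 and up to 0.256 CPM in R175H P72 replicate 2 (3 counts). The group means were 3.47 ± 0.868 CPM in R175H R72 (SD, n = 3), 0.187 CPM in R273H R72, 0.215 ± 0.148 CPM in R273H P72 (SD, n = 4) and 0.219 ± 0.191 CPM in R175H P72 (SD, n = 3).

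**Figure D1:**
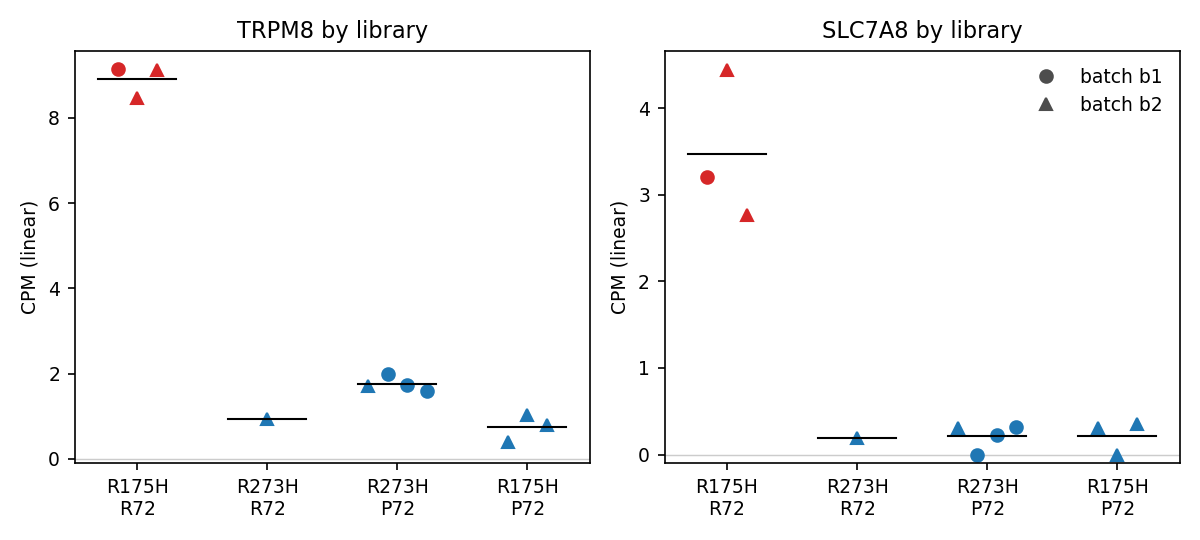
TRPM8 and SLC7A8 levels in CPM on a linear axis, 1 point per library, by group, with circles for batch b1, triangles for batch b2 and a line at each group mean. The R175H R72 libraries lie at 8.47 to 9.14 CPM of TRPM8 and 2.76 to 4.44 CPM of SLC7A8, above all 8 other libraries, which reach 1.99 and 0.355 CPM.

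Pooled over libraries, TRPM8 was 11.7-fold higher in R175H R72 than in R175H P72, with a 95% interval of 7.74 to 18.5 (exact, from 237 and 25 counts). It was 9.52-fold higher than in R273H R72 (5.09 to 20.1) and 5.09-fold higher than in R273H P72 (3.88 to 6.75). SLC7A8 was 16.6-fold higher in R175H R72 than in R175H P72 (7.74 to 42.4, from 94 and 7 counts), 18.9-fold higher than in R273H R72 (5.08 to 158) and 15.5-fold higher than in R273H P72 (7.81 to 34.9). These intervals and the limits for 0 counts cover counting error only. With batch as a term, the fitted log2 fold change of R175H R72 over R175H P72 was 3.52 (SE 0.31) for TRPM8 and 4.05 (SE 0.69) for SLC7A8. That comparison called 185 genes, 1.13% of the 16324 tested, with 52 (0.319%) higher in R72 and 133 (0.815%) lower. In these bulk libraries, more cells with the transcript and more transcript per cell cannot be told apart.

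Both genes were chosen as high in every R175H R72 library, so being high in either batch follows from that choice. The levels by batch are a description. In b1, TRPM8 stood at 9.14 CPM in the R175H R72 library and at 1.59 to 1.99 CPM in 3 R273H P72 libraries. In b2 it stood at 8.47 to 9.12 CPM in 2 R175H R72 libraries and at 0.403 to 1.71 CPM in the other 5. SLC7A8 stood at 3.2 CPM in the b1 R175H R72 library, against 0 to 0.317 CPM in the other b1 libraries, and at 2.76 to 4.44 CPM in b2, against 0 to 0.355 CPM. The ratio of means was 5.16 in b1 and 9.04 in b2 for TRPM8, and 17.5 in b1 and 15.6 in b2 for SLC7A8.

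Both genes were chosen as low in all P72 libraries, which limits how far the hotspots can differ within P72, although no difference between the hotspots was asked for. It was tested with edgeR's quasi-likelihood test with Benjamini-Hochberg adjustment over all genes. TRPM8 was 2.24-fold higher in R273H P72 than in R175H P72 (log2 fold change 1.16, SE 0.39, 95% interval 0.41 to 1.92, adjusted p = 0.0459), and the 4 R273H P72 libraries lay above all 3 R175H P72 libraries. This comparison called 14.6% of all genes tested (6.95% higher and 7.6% lower in R273H P72), and in 14% of all genes the R273H P72 libraries likewise all lay above the R175H P72 libraries. The TRPM8 call was close to the threshold: it passed in 5 of 20 alternative settings and not in the other 15. It passed without the R273H R72 library (adjusted p = 0.0411) and without R175H P72 replicate 2 (adjusted p = 0.0362), and not when any of the other 9 libraries was left out (adjusted p = 0.0507 to 0.183, log2 fold change 0.89 to 1.2). SLC7A8 had a log2 fold change of 0.28 (SE 0.96, interval -1.60 to 2.15, adjusted p = 0.888) with 9 counts in R273H P72 and 7 in R175H P72. At counts this low, in libraries chosen as low, the test could hardly have passed, and its p says nothing of whether the groups differ.

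R72 was next set against P72 on R273H, where R72 had a single library and the fit took its spread from the other groups. All 5 of these libraries were among those chosen as low. TRPM8 had 0.933 CPM in the R273H R72 library and 1.76 ± 0.172 CPM in R273H P72 (SD, n = 4), a log2 fold change of -0.86 (SE 0.52, interval -1.88 to 0.16, edgeR adjusted p = 0.741). For the single library, 10 of 10440919 counts gave 0.958 CPM of the unscaled total, with an exact Clopper-Pearson interval of 0.459 to 1.76. SLC7A8 had a log2 fold change of -0.46 (SE 1.35, interval -3.12 to 2.19, adjusted p = 0.97) from 2 counts in R273H R72 (0.192 CPM of the unscaled total, interval 0.0232 to 0.692). These p-values are no sign that the groups are alike, and edgeR called 0% of all genes in this comparison, with 1265 genes under 0.05 before adjustment. By DESeq2 23 genes were called higher and 89 lower, and limma-voom made no call. The fitted difference between the R72 effect on R273H and that on R175H was -4.38 (SE 0.63) for TRPM8 and -4.51 (SE 1.55) for SLC7A8, and it is a description, since the genes were chosen for it.

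Few other genes had this pattern. For each gene the gap was taken as the lowest log2 CPM of the 3 R175H R72 libraries minus the highest of the other 8, with a prior count of 2. The gap was 1.98 for TRPM8 and 2.42 for SLC7A8. In all, 104 genes (0.637%) had every R175H R72 library above the rest, and 4 (0.0245%) had a gap of at least 1. The other 2 were PDLIM4, which encodes an actin-binding PDZ and LIM domain protein, with a gap of 4.32, and CTB-78F1.1 (ENSG00000254187), a gene of the antisense class, with a gap of 3.33. The gap of the next gene, RP11-54H7.4, was 0.41. RP11-54H7.4 passed the filter on low counts only through R175H R72, with up to 1.08 CPM there and at most 0.56 CPM elsewhere. In the opposite direction 79 genes (0.484%) had every R175H R72 library below the rest and none of them had a gap of 1. The gene ENSG00000258998 led with 0.76, followed by BMP8B, a bone morphogenetic protein gene, with 0.61, CCDC87 with 0.36, the HOXD antisense gene HAGLR with 0.35 and C10orf54, the gene of the immune checkpoint VISTA, with 0.33.

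PDLIM4, on hg38 chromosome 5 at 132257671 to 132273454, had 9.37, 9.68 and 8.4 CPM in R175H R72 replicates 1, 2 and 4 (245 counts), against 0 to 0.231 CPM in the other 8 libraries (3 counts). The pooled ratio was 255, with a counting interval of 86.1 to 1243. CTB-78F1.1, on chromosome 5 at 167653228 to 167660481, had 2.25, 1.81 and 2.16 CPM in the same libraries (55 counts) and no count in the other 8, and the lower 95% counting limit of its ratio was 44.9. PDLIM4 was thus at about the level of TRPM8 in R175H R72 and was close to 0 elsewhere, where TRPM8 was still detected. TRPM8 and SLC7A8 lie on different chromosomes from each other and from these genes.

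For comparison, the same measure was taken for the groups with several libraries. All 4 R273H P72 libraries lay above the other 7 for 732 genes (4.48%), below them for 578 (3.54%), and 2 genes (0.0123%), HBE1 and RP5-902P8.10, had an upward gap of at least 1. All 3 R175H P72 libraries lay above the other 8 for 451 genes (2.76%), below them for 523 (3.2%), and the upward gap reached 1 in 1 gene (0.00613%), AP003025.2. R175H R72 thus had fewer genes wholly above the rest than either of these groups, and more genes with a gap of at least 1. The difference between these counts was not tested. The groups also differ in size and in batch. R175H R72 held 1 library of b1 and 2 of b2, R273H P72 held 3 and 1, and R175H P72 held 0 and 3. How far batch adds to these counts was not tested. The R175H R72 genes include TRPM8 and SLC7A8, which were chosen for this pattern. PDLIM4, CTB-78F1.1 and SLC7A8 passed the filter on low counts only through R175H R72 libraries. AP003025.2 passed it only through R175H P72, and HBE1 and RP5-902P8.10 only through R273H P72. The counts of genes with a gap of at least 1 are thus no measure of how far the groups differ.

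**Figure D2:**
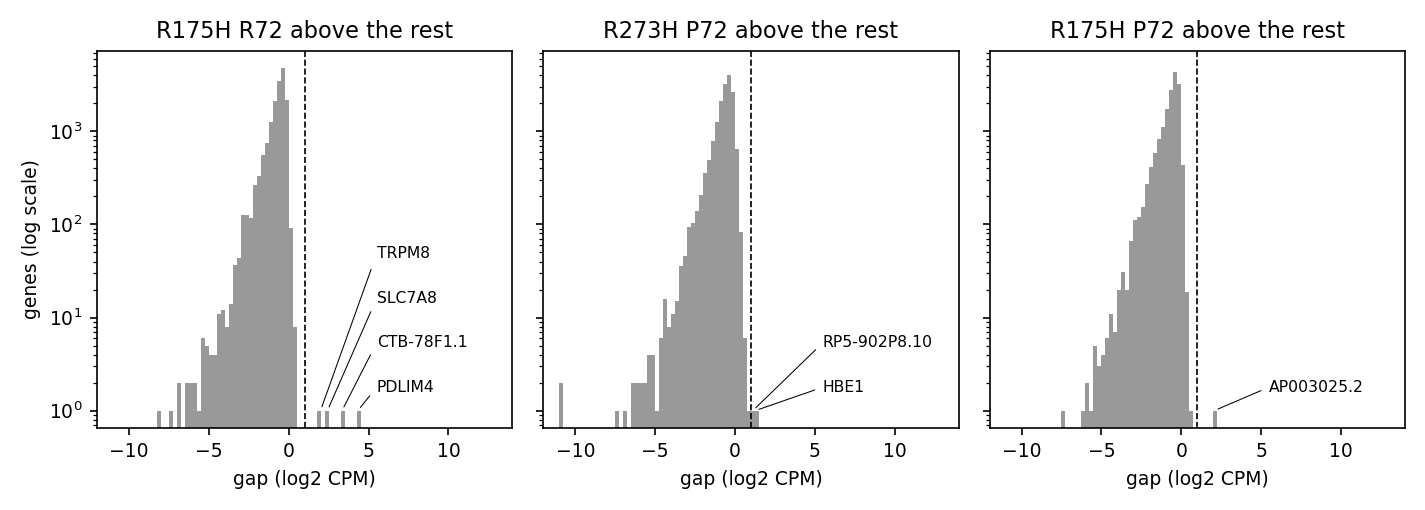
Number of genes (log axis) by gap in log2 CPM for the R175H R72 (3 libraries), R273H P72 (4 libraries) and R175H P72 (3 libraries) groups against all other libraries, with a dashed line at a gap of 1. In R175H R72, 4 genes stand beyond the line at gaps of 1.98 to 4.32, against 2 in R273H P72 and 1 in R175H P72.

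Genes were also ranked by Pearson's r of log2 CPM over the 11 libraries, which share their depths and batches. SLC7A8 had an r of 0.84 with TRPM8. The libraries form a high and a low cluster for both genes, and over the 8 libraries outside R175H R72 the r was -0.28. The genes most like TRPM8 were PDLIM4 (0.93), CTB-78F1.1 (0.92), the interleukin gene IL10 (0.88), FBF1 (0.87), which encodes a protein of ciliary and centriolar appendages, and RAD21-AS1 (0.85). Those most like SLC7A8 were PDLIM4 (0.94), CTB-78F1.1 (0.94), the galactosyltransferase gene B3GALT4 (0.91), the integrin gene ITGB3 (0.90) and PMEPA1 (0.90), an inhibitor of TGF-β signalling. Beyond the first pair the differences were much smaller than those of TRPM8 and SLC7A8: the fitted log2 fold change of R175H R72 over R175H P72 was 1.2 (SE 0.57) for IL10, 1.31 (SE 0.61) for RAD21-AS1 and 0.47 to 0.65 for FBF1, B3GALT4, ITGB3 and PMEPA1. IL10, like PDLIM4 and CTB-78F1.1, passed the filter on low counts only through R175H R72 libraries. It had 1.07 to 1.32 CPM there and at most 0.821 CPM elsewhere, so its r is partly built in.

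The genes around TRPM8 and SLC7A8 were read for R175H R72 against R175H P72, with edgeR's quasi-likelihood test. Over all genes tested, 1.13% were called in this comparison, 13.6% had an unadjusted p under 0.05 and 49.9% had a positive log2 fold change. Of 36 genes starting within 1 Mb of TRPM8, 17 had no count and 13 were tested. None of them passed, 1 had an unadjusted p under 0.05, and the log2 fold changes were -0.82 to 0.37 with a median of -0.02. Of 166 genes within 1 Mb of SLC7A8, 106 had no count and 46 were tested. None of these passed, 4 had an unadjusted p under 0.05, and the log2 fold changes were -1.2 to 1.12 with a median of 0.00, the median of all genes. DESeq2 called 1 of the neighbours, MMP14, a membrane metalloproteinase gene near SLC7A8 (log2 fold change 0.27, adjusted p = 0.0474), and limma-voom called 0. Over all 16324 genes DESeq2 called 133 higher and 200 lower. With 1.13% of all genes called, few calls or none among 13 and 46 genes is near the background.

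Next to TRPM8, SPP2, 31.2 kb beyond its 3′ end, had 3.58 CPM in R175H R72 and 3.46 CPM in R175H P72 (log2 fold change 0.05, SE 0.26, edgeR adjusted p = 0.965). AC005538.3, the nearest tested gene before its start, had 14.5 CPM in R175H R72 and 16.3 CPM in R175H P72 (-0.26, SE 0.17, adjusted p = 0.532). Next to SLC7A8, C14orf119, 24.8 kb away, had 27.5 CPM in R175H R72 and 26.5 CPM in R175H P72 (0.03, SE 0.15, adjusted p = 0.957), and the homeobox and leucine zipper gene HOMEZ, 88.7 kb away, had 6.51 CPM in R175H R72 and 7.67 CPM in R175H P72 (-0.40, SE 0.19, adjusted p = 0.343). The annotated genes that overlap them were the antisense AC005538.1 over exons of TRPM8 and RNU6-1138P within SLC7A8, and both had 0 counts over all libraries.

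**Figure D3:**
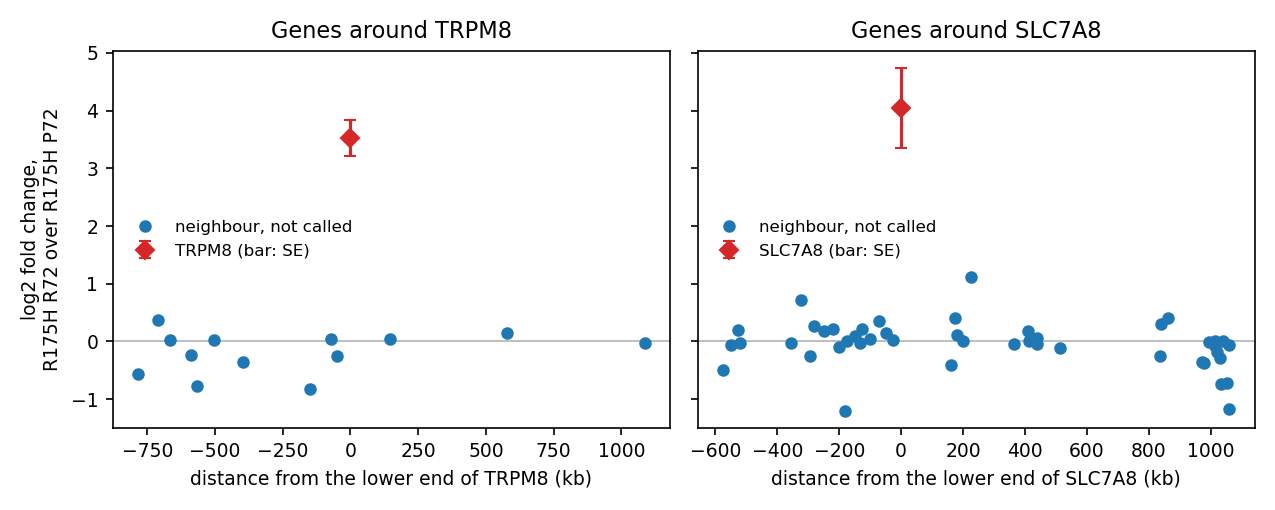
Fitted log2 fold change of R175H R72 over R175H P72 for TRPM8 (left) and SLC7A8 (right), as diamonds with bars of 1 SE, and for the tested genes starting within 1 Mb, as points, by distance in kb from the lower coordinate end of the member. TRPM8 at 3.52 and SLC7A8 at 4.05 stand above neighbours that lie between -1.2 and 1.12, none of which was called.

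Among the channels related to TRPM8, 13 of 26 other TRP genes were tested. None was called in R175H R72 against R175H P72 by edgeR, which called 1.13% of all genes. Of the 13, 2 were under 0.05 before adjustment, as were 13.6% of all genes, and 0 were called by DESeq2 or limma-voom. Their median log2 fold change was 0.07, against 0.00 over all genes. The most abundant of them was TRPM7, a channel with a kinase domain that carries magnesium and calcium, with 120 CPM in R175H R72 and 118 CPM in R175H P72. MCOLN2, a lysosomal channel, had 65.7 CPM in R175H R72 and 54.0 CPM in R175H P72 (log2 fold change 0.33, SE 0.11, adjusted p = 0.135), TRPV2 had 28.0 CPM in R175H R72 and 24.5 CPM in R175H P72, and PKD2, a ciliary channel, had 23.8 CPM in R175H R72 and 24.2 CPM in R175H P72. MCOLN2 stood at 75.0 CPM in R273H R72 and 73.3 CPM in R273H P72, so its lowest mean was in R175H P72. TRPM5, TRPV5, TRPV6, TRPC5 and TRPC7 had no count. TRPV1, the heat and capsaicin channel, was looked at after its values were seen, for the lowest value of the list: a log2 fold change of -3.55 (SE 1.45, adjusted p = 0.277) at means of 0.515 ± 0.79 CPM in R175H R72 and 0.718 ± 0.724 CPM in R175H P72 (SD, n = 3 each). These means differ far less than the fitted value, which has batch as a term. The SDs are about as large as the means or larger, so the fitted value for TRPV1 is uncertain.

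Of 34 genes for calcium entry, calcium stores and PIP2, 32 were tested, 1 was called higher and 0 lower (0.319% and 0.815% of all genes), 8 had an unadjusted p under 0.05 (13.6% of all genes), and the median was 0.03. The gene called was ATP2B1, a plasma membrane pump that removes calcium from the cell, with 202 ± 7.0 CPM in R175H R72 and 156 ± 6.03 CPM in R175H P72 (SD, n = 3 each, log2 fold change 0.38, SE 0.08, edgeR adjusted p = 0.0202). ATP2B1 also stood at 208 CPM in R273H R72 and 202 CPM in R273H P72, so R175H P72 had the lowest mean of the groups. It was called in 15 of 20 alternatives; among those where it was not, its adjusted p was 0.223 without R175H R72 replicate 2 (log2 fold change 0.35) and 0.131 without R175H P72 replicate 2 (0.35), 0.126 with a GC trend removed and 0.281 without the batch term. CALR, a calcium-binding chaperone of the endoplasmic reticulum, had 1028 CPM in R175H R72 and 824 CPM in R175H P72 (0.31, SE 0.10, adjusted p = 0.137). CALR stood at 1093 CPM in R273H R72 and 1132 CPM in R273H P72, so R175H P72 again had the lowest mean. The calmodulin gene CALM2 had a log2 fold change of 0.15 and TMBIM6, which encodes a calcium channel-like protein of the endoplasmic reticulum, 0.12, with adjusted p of 0.533 or more. ATP2B4, another calcium pump of the plasma membrane, was chosen after its values were seen, with 47.7 CPM in R175H R72 and 35.9 CPM in R175H P72 (0.42, SE 0.11, edgeR adjusted p = 0.0761), and DESeq2 called it (0.43, adjusted p = 0.0491). DESeq2 called ATP2B1 as well and limma-voom called ATP2B1 alone of the list. Over all 16324 genes DESeq2 called 133 higher and 200 lower, and limma-voom called 47 higher and 127 lower. PIRT, which encodes a TRP channel regulator, had no count.

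Of the 14 other SLC7 light chains and SLC3 heavy chains, 8 were tested and none was called by edgeR, against 1.13% of all genes. All 8 had positive log2 fold changes, against 49.9% of all genes, 5 had an unadjusted p under 0.05, against 13.6% of all genes, and the median was 0.37. Summed levels of the list were 3061 to 3218 CPM in R175H R72 and 2186 to 2758 CPM in R175H P72. They were 2957 CPM in R273H R72 and 3302 to 4709 CPM in R273H P72, so R175H P72 had the lowest sums. Whether the list differs from other genes was not tested. Without the filter on low counts SLC7A1, SLC7A5 and SLC7A11 were called higher, and DESeq2 called SLC7A11 (adjusted p = 0.017) and limma-voom 0 of the list. Over all genes, 229 were called higher and 335 lower of 25324 without the filter, and 133 higher and 200 lower of 16324 with DESeq2. SLC7A5, the LAT1 gene, had 2398 ± 37.3 CPM in R175H R72 and 1810 ± 234 CPM in R175H P72 (SD, n = 3 each, log2 fold change 0.37, SE 0.14, edgeR adjusted p = 0.271), with 2161 CPM in R273H R72 and 3209 CPM in R273H P72. SLC3A2, whose product pairs with both LAT1 and LAT2, had 344 CPM in R175H R72 and 326 CPM in R175H P72 (0.12, SE 0.09, adjusted p = 0.597). The cystine exchanger gene SLC7A11 had a log2 fold change of 0.36 (SE 0.09, adjusted p = 0.0619) and the cationic amino acid transporter gene SLC7A1 had 206 CPM in R175H R72 and 172 CPM in R175H P72 (0.32, SE 0.10, adjusted p = 0.119). SLC7A7, the light chain gene on the same chromosome as SLC7A8, was chosen after its values were seen and had 1.89 CPM in R175H R72 and 0.97 CPM in R175H P72 (0.72, SE 0.43, adjusted p = 0.492). SLC7A3, SLC7A4 and SLC7A13 had no count.

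Of 25 other amino acid transporters, 19 were tested and none was called (edgeR, against 1.13% of all genes), while 5 had an unadjusted p under 0.05 (13.6% of all genes) and the median was 0.19. DESeq2 called SLC38A1 and SLC38A2, and limma-voom called 0. Over all 16324 genes DESeq2 called 133 higher and 200 lower. SLC38A2, a glutamine and alanine transporter, had 1647 CPM in R175H R72 and 1362 CPM in R175H P72 (0.32, SE 0.09, edgeR adjusted p = 0.108), and SLC38A1 had 850 CPM in R175H R72 and 705 CPM in R175H P72 (0.31, SE 0.09, adjusted p = 0.111). Summed levels of the list were 3143 to 3542 CPM in R175H R72 and 2538 to 3076 CPM in R175H P72. They were 3667 CPM in R273H R72 and 3328 to 3895 CPM in R273H P72, so R175H P72 had the lowest sums here too. The exchanger SLC1A5 had 386 ± 51.1 CPM in R175H R72 and 293 ± 101 CPM in R175H P72 (SD, n = 3 each; 0.40, SE 0.31, adjusted p = 0.655), and SLC1A4 had a log2 fold change of 0.02. The androgen receptor and its target genes were listed because the receptor acts on TRPM8 in prostate. Of 18, 13 were tested and none was called by edgeR (1.13% of all genes), DESeq2 or limma-voom. Of these, 5 had an unadjusted p under 0.05 in edgeR (13.6% of all genes), and the median was 0.19. STEAP2, ACSL3 and ABCC4, which are among the most abundant of them, had log2 fold changes of 0.09, 0.21 and 0.20 with adjusted p of 0.27 or more, and the prostate kallikreins KLK3 and KLK4 had no count.

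**Figure D4:**
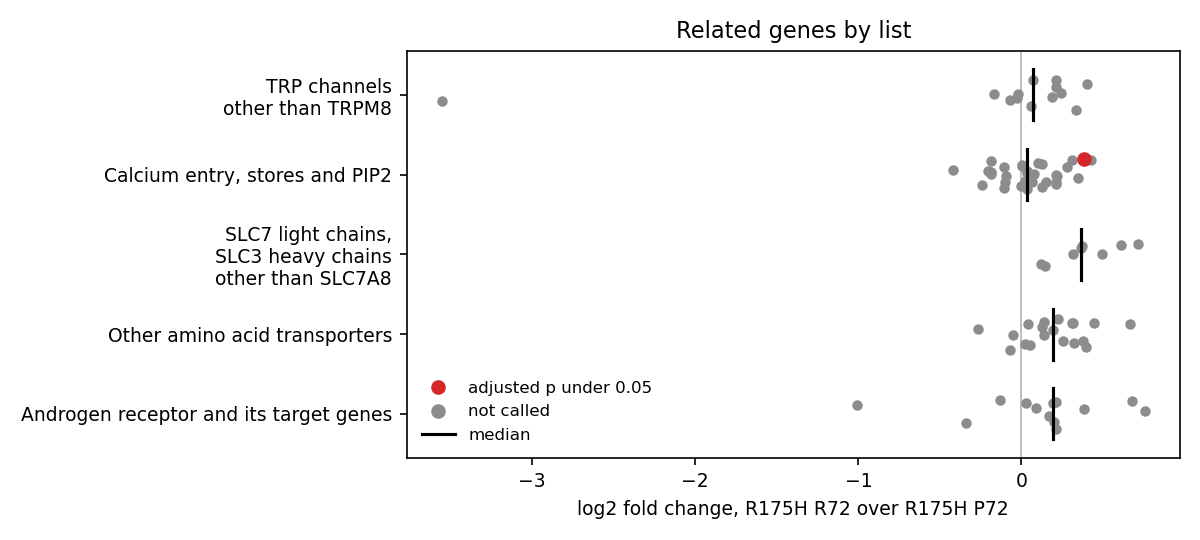
Fitted log2 fold change of R175H R72 over R175H P72 for the tested genes of each list related to TRPM8 or SLC7A8, 1 point per gene, with the list median as a line and called genes in red. The medians lie between 0.03 and 0.37, ATP2B1 is the called gene at 0.38, and TRPV1 at -3.55 is the low point among TRP channels. The TRPV1 value is uncertain (SE 1.45, not called), at means of 0.515 CPM in R175H R72 and 0.718 CPM in R175H P72.

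Markers of the tissues in which TRPM8 and SLC7A8 are best known had summed levels in R175H R72 that overlapped those of the other groups. Summed prostate luminal markers had 11.4 to 14.9 CPM in R175H R72, 13.1 in R273H R72, 14.3 to 17.5 in R273H P72 and 11.6 to 12.4 in R175H P72. Sensory neuron markers had 62.1 to 66.8 CPM in R175H R72, 65.9 in R273H R72, 54.4 to 64.7 in R273H P72 and 63.1 to 69.4 in R175H P72. Kidney proximal tubule markers had 4.54 to 6.76 CPM in R175H R72, 5.88 in R273H R72, 4.54 to 7.15 in R273H P72 and 5.28 to 6.21 in R175H P72. For R72 over P72 on R175H, edgeR called none of these markers, against 1.13% of all genes. Unadjusted p was under 0.05 in 2 of 4 tested prostate, 1 of 7 neuron and 0 of 2 kidney markers (13.6% of all genes). The median log2 fold changes were 0.35, -0.04 and 0.26. KLK3 and FOLH1 (prostate), SCN10A and P2RX3 (sensory neuron) and SLC34A1 and SLC22A6 (kidney) had no count. The 8 markers of H1299 as a mesenchymal-type carcinoma cell summed to 3420 to 3682 CPM in R175H R72, 3506 in R273H R72, 3254 to 3319 in R273H P72 and 3677 to 4127 in R175H P72. Differentiated lung epithelium markers reached 3.7 CPM at most, with SFTPA1, SFTPC, SFTPD, SCGB1A1 and FOXJ1 at 0.

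The libraries held 8346926 to 12829560 counts and 19540 to 20489 detected genes. The last 500 bases of TRPM8 had a GC content of 43.8% and those of SLC7A8 50.5%, against a median of 46.3% for tested genes. The slope of log2 level on GC differed between R175H R72 libraries (-0.089 to 0.079). With a GC trend removed the log2 fold change of R175H R72 over R175H P72 was 3.49 for TRPM8 and 4.05 for SLC7A8. Whether GC affects the levels of TRPM8 and SLC7A8 was not tested.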

How the data were processed

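RNA of stably transfected H1299 cells was sequenced as QuantSeq 3′ libraries with single 75 bp reads, per the labels' protocols. The deposited values are estimated counts per gene, all of them whole. Per the submitters' processing notes the authors used Bowtie2, RSEM 1.2.12 and DESeq2 on hg38, with no order or settings. RSEM shares out reads with several matches, and a strand setting was not given in the sources used. No further columns of values were present (0). Columns were matched to libraries by title.

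GENCODE 29 held 42551 of 45965 gene IDs; 20641 genes had no count. The filter on low counts was edgeR's filterByExpr with a minimum count of 10 and a minimum total of 15, and 16324 genes passed. edgeR 4.0.16 in R 4.3.3 fitted group and batch over 11 libraries with TMM factors (0.979 to 1.03) and the robust quasi-likelihood test. Benjamini-Hochberg adjustment ran over all 16324 genes, and adjusted p under 0.05 was called. CPM used TMM-scaled library sizes. Steps were tested on simulated data. Libraries of a group differed beyond sampling noise (chi-square over its degrees of freedom 4.24 to 20.1), and none was treated as a duplicate.

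The genes and lists were chosen with earlier results of these data known. The genes named were TRPM8 and SLC7A8, the 5 most correlated with each, the 5 largest gaps in each direction, called genes and up to 4 of the highest mean from each list, and the nearest tested neighbour on each side; a few of these are not reported here. Others are said to be chosen after their values were seen; so were the genes of the gap of at least 1 in other groups and those called by other tools. Alternatives were DESeq2 1.42.0, no filter, RLE scaling, library totals, limma-voom (limma 3.58.1), no batch term, a replicate block, batch b2 alone, each library left out, other prior counts and gap sizes, and, chosen after seeing the data, removal of a GC trend.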

Additional observations from a re-analysis of the deposited data

Results flagged for a closer look

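The fitted TRPM8 effect of R72 had opposite signs on the hotspots: the log2 fold change was -0.86 on R273H and 3.52 on R175H, a difference of -4.38. The R273H value has an SE of 0.52 and an interval of -1.88 to 0.16, which covers both signs. TRPM8 was chosen for this pattern, so the difference was not tested, and R273H R72 is a single library.

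In the group of 4 R273H P72 libraries, 1 library lay far from the others for 3 of the genes named above. PDLIM4 had 0.231 CPM in replicate 3 and 0 in the other 3, a gap of 1.0 of the group's range that rests on 2 counts. STEAP2 had 87.3 CPM in replicate 2 and 65.5 to 67.4 CPM in the others, a gap of 0.914 of the range. RP11-54H7.4 had 0.423 CPM in replicate 4, from 4 counts, and 0.115 to 0.156 CPM in the others, a gap of 0.869 of the range. In all 61 groups of values were examined this way. For normally distributed values, chance gives such a gap in about 1 in 20. That rate was not worked out for counts near 0, such as those of PDLIM4 and RP11-54H7.4.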

How the results depend on the processing

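The log2 fold changes of R175H R72 over R175H P72 were 3.25 to 3.82 for TRPM8 and 3.45 to 4.61 for SLC7A8 over 20 alternatives. Both genes were chosen for this difference, so its unchanged direction is no check of it. R72 over P72 on R273H took values over 18 alternatives of -0.90 to -0.78 for TRPM8 and -0.89 to -0.18 for SLC7A8. Without the R273H R72 library this comparison could not be fitted, and DESeq2 gave no adjusted p for TRPM8 or SLC7A8 there, nor for SLC7A8 between hotspots. TRPM8 in R273H over R175H within P72 (1.16) was no longer called with no filter (1.18, adjusted p = 0.0591), DESeq2 (1.19, 0.0781), limma-voom (1.2, 0.0543), batch b2 alone (1.17, 0.186) or a GC trend removed (1.13, 0.0565), and was 0.89 to 1.46 when a library was left out. For SLC7A8 the same comparison (0.28) was -0.32 to 0.84 when a library was left out, and it turned negative without R273H P72 replicate 1 (-0.01) and without R175H P72 replicate 2 (-0.32). The cause was not tested.

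For R72 over P72 on R175H, 52 genes were called higher and 133 lower, against 229 and 335 without the filter, 133 and 200 with DESeq2, 4 and 2 without the batch term, and 15 and 41 with a GC trend removed. When a library was left out the counts were 3 to 91 higher and 21 to 183 lower, with 3 and 21 without R175H R72 replicate 2, 8 and 44 without R175H P72 replicate 2, and 91 and 177 without R175H R72 replicate 1. List genes called higher (1) were 2 with library totals, 10 without the filter, 5 with DESeq2, 0 without the batch term, 0 with a GC trend removed, and 0 to 3 when a library was left out. Neighbours called lower (0) were 2 without the filter and 0 to 1 when a library was left out, and neighbours called higher (0) were 1 with DESeq2. Genes with every R175H R72 library above the rest by a gap of 1 (4) were 4 to 6 when one of these libraries was left out. The 4 named were among them in every setting. Leaving out such a library or lowering the gap size cannot remove a gene, so those settings had to keep the 4. TRPM8 and SLC7A8 were also chosen for this pattern. Such genes below the rest (0) were 1 with a prior count of 0.5, 2 with a gap of 0.5, and 0 to 2 when one was left out.

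R72 and P72 libraries on R175H share replicate numbers, but the correlation of their deviations was -0.02, -0.18 and 0.23 for replicates 1, 2 and 4 over 8976 genes, so the numbers were not taken to pair libraries. With the replicate number as a block, TRPM8 between hotspots within P72 was at 1.16 (adjusted p = 0.0918), 13 genes were called higher and 68 lower for R72 on R175H, and 0 of the list genes were called higher.

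Depth limits SLC7A8 most, since outside R175H R72 it rests on 18 counts over 8 libraries, against 104 for TRPM8. The R72 comparison on R273H rests on the single library of R273H R72.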

Other observations

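The genes that stood apart in the other groups were each of low level. AP003025.2 had 2.12, 4.0 and 2.93 CPM in R175H P72 replicates 1, 2 and 4, against 0 to 0.356 CPM in the other 8 libraries. HBE1, an embryonic globin gene, had 0.855, 1.64, 2.08 and 0.846 CPM in R273H P72 replicates 1 to 4, against 0 to 0.237 CPM in the other 7. RP5-902P8.10 had 2.02, 1.76, 2.65 and 2.22 CPM in the R273H P72 libraries, against 0.12 to 0.706 CPM in the other 7. These genes were chosen after their values were seen, and the annotated span of HBE1 on hg38 chromosome 11, 5268345 to 5505652, covers other genes whose reads can be shared. TRPM8 and SLC7A8 belong to a group of 4 genes in R175H R72, a pattern they were chosen for. Each of the other groups with several libraries had 1 or 2 genes of its own with a gap of at least 1.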
